A study of Ictalurus punctatus with 24 samples.

Results

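The liver of channel catfish (Ictalurus punctatus) fed a high-frass diet was compared with the liver of fish fed the control diet without frass. The comparison holds 7 of the 24 libraries of the series, 3 from high-frass liver (replicates 1, 2 and 4) and 4 from control liver (replicates 1 to 4), chosen by tissue and diet. High-frass liver replicate 3 was left out because the study scored its RNA as poorly intact. Frass is what remains after rearing black soldier fly larvae (Hermetia illucens), mostly their droppings. Here it replaced part of the soybean meal, wheat shorts and corn meal of a practical diet at equal protein, at 300 g per kg of feed in the high-frass diet and 0 g per kg in the control diet. All fish were Marion strain fingerlings fed to satiation for 10 weeks in aquaria, and each library was made from pooled liver tissue. A pool averages its fish, so p-values measure the spread between pools and not between single fish. Poly(A)-selected RNA was sequenced, and 3 low-frass liver libraries (50 g per kg) entered the same statistical fit.

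The liver makes most plasma proteins, among them complement components, clotting factors, iron and lipid carriers, and it takes up, burns and exports fat. Cells that sense viral nucleic acids release interferons, which act through receptors on the cell surface and induce antiviral genes such as Mx, viperin (rsad2) and ISG15. Proteins bound for secretion fold in the endoplasmic reticulum with the help of chaperones such as GRP94 (hsp90b1) and BiP (hspa5), which the cell makes in larger amounts when unfolded protein builds up. In many bony fishes, pancreatic tissue lies within or against the liver, so that liver samples can carry digestive enzyme transcripts.

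The libraries held 12076582 to 15604418 counts in control liver and 13203655 to 15300996 in high-frass liver (p = 0.686, exact permutation test, two-sided, for which 3 against 4 libraries cannot go below 0.0571). They detected 10277 to 12312 and 10508 to 11208 features. A feature here is a transcript of the annotation, and its level is given as CPM, counts per 1000000 counts of its library after TMM scaling. All 17 hepatocyte markers were detected, and their summed level was 209400 to 284500 CPM in control and 211700 to 265800 CPM in high-frass liver. Exocrine pancreas markers were abundant in every library, with sums of 67890 to 122600 CPM in control and 60240 to 124300 CPM in high-frass liver. Across features, the Pearson r of log2 CPM ran from 0.943 to 0.976 within diets and from 0.938 to 0.976 between diets.

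No transcript passed the test between high-frass and control liver. Of 7213 features tested with edgeR's quasi-likelihood test, 0 (0%) reached an adjusted p under 0.05 with a fold change above 2, and the smallest adjusted p was 0.86. At an unadjusted p under 0.05 there were 374 features (5.19%), 147 higher (2.04%) and 227 lower (3.15%) in high-frass liver, where an even spread of p-values gives 360.65. DESeq2 called 3 features in 1 fit over the 3 diets and 5 in a fit of these groups alone. The 3 were abcc6a, higher, and LOC108265749 and LOC108271815, lower. The 5 were abcc6a and LOC108265749 again with LOC108261553, fgf3 and LOC108256873, lower. Without a filter on low counts edgeR called 133, of which 31 were higher and 102 lower. The quartiles of the log2 fold changes were -0.22 and 0.20 around a median of -0.01, and the median standard error was 0.29. Every high-frass library lay outside the control range for 409 features (5.67%), above it for 202 (2.8%) and below it for 207 (2.87%). With high-frass liver replicate 3 put back, 164 features kept the groups apart. The values below are therefore differences between libraries, none of which passed the adjusted test.

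**Figure D1:**
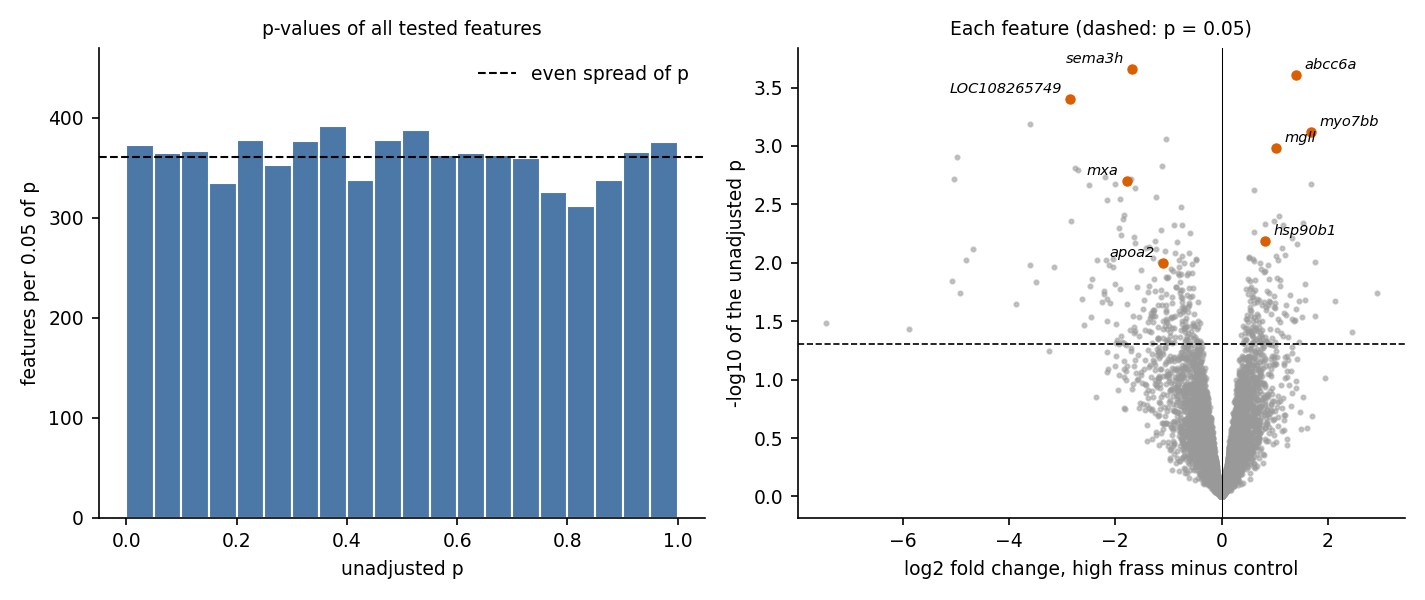
Left, the number of features in each 0.05 of unadjusted p (x axis) among the 7213 tested between high-frass and control liver, with a dashed line where an even spread would lie. Right, the log2 fold change (high frass minus control, x axis) against -log10 of the unadjusted p for each feature, with genes of the text in orange. The first bar holds 374 features and the line lies at 360.65, and the labelled genes with the smallest p are sema3h on the lower side and abcc6a on the higher side.

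Of the features without overlap, abcc6a had the smallest p among those higher in high-frass liver. It encodes an ATP-driven efflux pump of the liver and is annotated on chromosome 12, from 14046191 to 14073291 in Coco_2.0. The control livers had 23.6, 17.9, 32.8 and 34.2 CPM and the high-frass livers 64.2, 66.5 and 83.6 CPM. The highest control thus lay well below the lowest high-frass library, and the means were 27.1 ± 7.75 (SD, n = 4) and 71.4 ± 10.6 CPM (SD, n = 3). The log2 fold change was 1.396 (SE 0.27, unadjusted p = 0.000246). The low-frass livers had 36.6, 19.96 and 35.0 CPM, within or just above the control range. The library left out, high-frass liver replicate 3, had 12.4 CPM, below every control.

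Monoglyceride lipase (mgll), which splits monoglycerides into glycerol and fatty acid, had 8.64, 9.79, 13.9 and 7.66 CPM in control liver and 15.5, 21.1 and 24.6 CPM in high-frass liver (log2 fold change 1.03, SE 0.24). Only reads that belong to 1 of its 3 annotated transcripts could be counted. Fatty acid 2-hydroxylase (fa2h), which makes hydroxylated fatty acids for sphingolipids, had 9.99 to 12.4 CPM in control and 15.8 to 18.0 CPM in high-frass liver (log2 fold change 0.62, SE 0.16). The zinc importer slc39a4 had 44.5, 33.1, 40.6 and 33.1 CPM against 49.9, 57.6 and 66.2 CPM (log2 fold change 0.61, SE 0.18). The groups did not overlap for mgll, fa2h or slc39a4. The nuclear receptor gene nr2f5 showed a narrow gap, with 37.0 CPM in its highest control and 39.4 CPM in its lowest high-frass library. Of the other leading features, the growth factor pdgfd had a log2 fold change of 1.16, the secreted factor metrnlb 0.82, the co-chaperone stip1 0.52 and the RNA helicase ddx19b 0.52. The genes myo7bb, LOC108279106, mlec, zanl and LOC128629543 were low, at most 5.68 CPM in any control library, with log2 fold changes of 1.68, 1.33, 1.14, 1.19 and 1.08. For zanl, the value was 0.60 without high-frass liver replicate 4.

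Among features lower in high-frass liver, sema3h had the smallest p. It encodes a secreted semaphorin, a family of guidance signals, and lies on chromosome 5 from 27210688 to 27240007. The control livers had 3.09, 1.94, 3.07 and 3.68 CPM and the high-frass livers 0.79, 1.14 and 0.79 CPM (log2 fold change -1.68, SE 0.32, unadjusted p = 0.00022). The level was low, at 27 to 53 counts per control library and 9 to 18 per high-frass library. LOC108265749, annotated as phosphatidylethanolamine-binding protein 4, had 3.88, 15.3, 18.3 and 15.1 CPM against 2.45, 2.29 and 0.79 CPM (log2 fold change -2.84, SE 0.58). Control replicate 1 lay near the high-frass libraries and the other controls far above them, while high-frass liver replicate 3, left out, had 17.2 CPM and with it the log2 fold change was -1.25. A carnitine/acylcarnitine carrier gene (si:dkey-150i13.2), whose product brings fatty acids into mitochondria, had 6.97, 5.97, 8.29 and 8.94 CPM against 4.37, 3.24 and 3.37 CPM (log2 fold change -1.05, SE 0.24). LOC108278934, annotated as ABHD15, had a log2 fold change of -1.12 and the chemokine gene ccl19a.1 one of -1.62. With high-frass liver replicate 3 put back, which had 11.1 CPM of ccl19a.1 against at most 2.44 CPM in the other high-frass livers, that value was -0.69.

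The other features that led on this side rested on few counts. A feature annotated as titin, LOC108261553, had 5, 57, 90 and 83 counts in the control libraries and 1, 4 and 0 in the high-frass libraries. The growth factor gene fgf3 had 5, 54, 46 and 52 counts against 3, 0 and 0. LOC108271815 had 11 to 35 counts in control libraries and 0, 6 and 0 in high-frass libraries. Tyrosine hydroxylase 2 (th2), an enzyme of catecholamine synthesis, had 10 to 34 counts against 0, 6 and 3. The groups did not overlap for any of them, but for titin and fgf3 control replicate 1 was close to the high-frass libraries. LOC108263683, bbs7, znf207a and LOC128632714 had log2 fold changes of -1.998, -2.20, -2.699 and -1.92, with at most 53 counts in any library of either group.

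**Figure D2:**
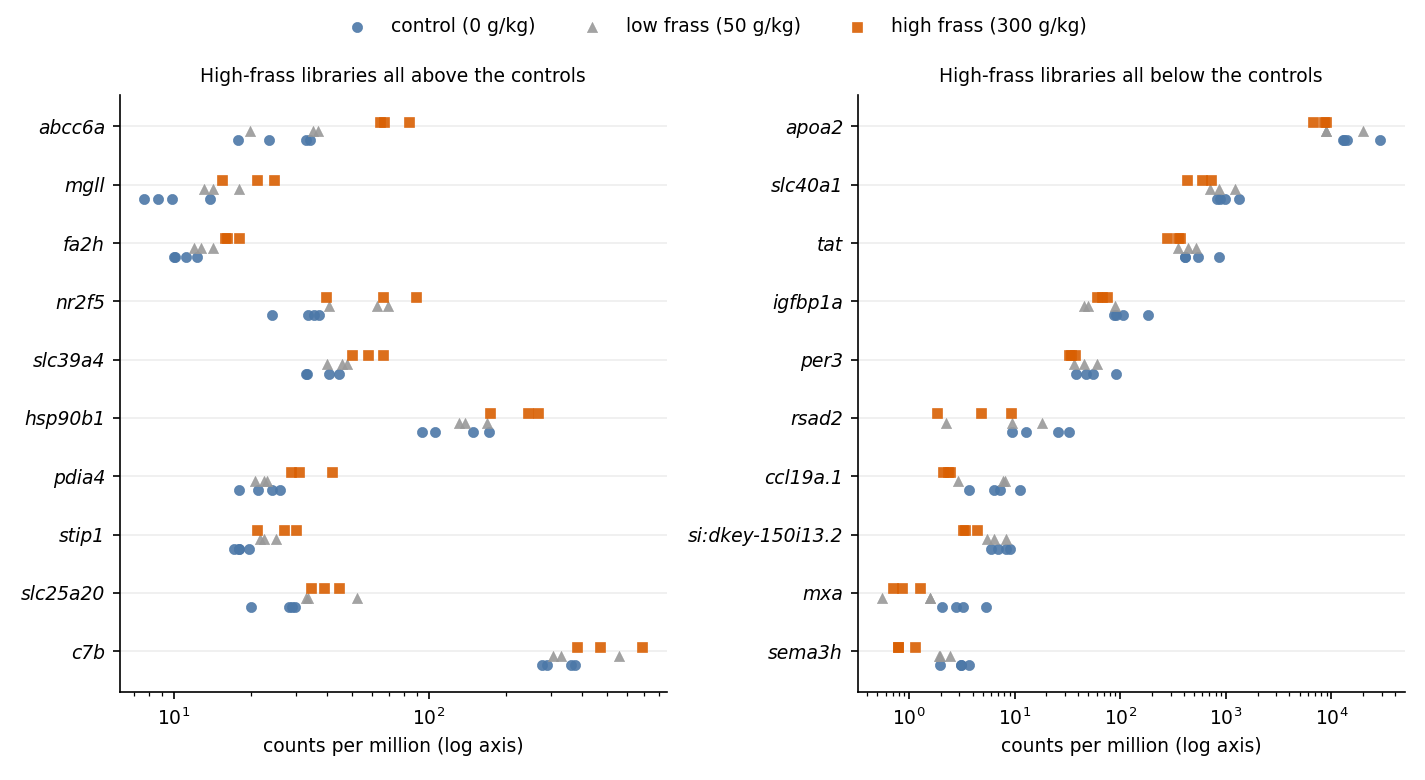
Level of 20 transcripts in each liver library, in CPM on a log axis, with 1 symbol per library for control, low-frass and high-frass liver. Left, genes with every high-frass library above the controls, such as abcc6a (at least 64.2 against at most 34.2 CPM). Right, genes with every high-frass library below them, such as apoa2 (at most 8880 against at least 12930 CPM).

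Interferon-stimulated genes were lower in high-frass liver as a group, in values that did not pass the adjusted test. Of 45 features matched to the list, 20 were tested, and all 20 had a negative log2 fold change, against 51.6% of all features. Their median was -1.26, against -0.01 over all features, 9 had an unadjusted p under 0.05, against 5.19% of all features (3.15% lower), and 4 (20%) did not overlap between the groups, against 5.67% of all features. Product names were known only for features of the study's own lists of changed genes, made from these libraries. Any feature matched by product name therefore came from those lists. They include 11 of the 20, so the values for all 20 partly describe that choice and are not independent evidence of direction. The other 9 were also all lower, with a median of -0.44, and none reached an unadjusted p under 0.05. In bulk tissue, fewer cells of a type and less RNA per cell cannot be told apart.

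Viperin (rsad2), an antiviral enzyme, had 32.9, 9.5, 12.9 and 25.8 CPM in control and 1.84, 9.27 and 4.8 CPM in high-frass liver (log2 fold change -1.91, SE 0.69). Control replicate 2 and high-frass replicate 2 nearly met. The Mx GTPase gene mxa, an antiviral effector, had 5.29, 2.81, 2.03 and 3.23 CPM against 0.70, 1.27 and 0.86 CPM (log2 fold change -1.79, SE 0.45). LOC108278124, annotated as TRIM25, a ligase that activates the RNA sensor RIG-I, had a log2 fold change of -1.71, and LOC124626777, annotated as PARP12, one of -1.62. These 4 transcripts kept the groups apart. LOC108256873, an interferon-induced protein 44, had 2.47, 17.6, 21.9 and 22.2 CPM against 1.66, 3.75 and 3.08 CPM. The transcription factor gene irf9 (log2 fold change -0.69) and the nucleotide kinase gene cmpk2 (-1.16) overlapped widely. Without control replicate 1 they were at -0.44 and -0.76, and without high-frass replicate 1 at -0.44 and -0.69. Several of these genes have close copies in the genome, and reads shared between copies may have been assigned to either or to none.

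The spread within each diet was wide for this list. The summed level was 545.1, 336.2, 279.1 and 673.1 CPM in control replicates 1 to 4 and 112.7, 281.8 and 241.6 CPM in high-frass replicates 1, 2 and 4, so that the groups just overlapped. High-frass liver replicate 3, left out for its RNA quality, had 1314 CPM, above every other library, with 341 CPM of rsad2. With it put back, the list's median was -0.10, and rsad2, cmpk2 and LOC128632109 turned to log2 fold changes of 2.16, 0.51 and 0.06. The genes mxa and LOC108278124 were still lower with it, at -0.93 and -0.44. The part of its RNA quality in these values was not tested. Against low-frass liver the list's median was -0.32, with 0 of 20 at an unadjusted p under 0.05, against 2.34% of all features.

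**Figure D3:**
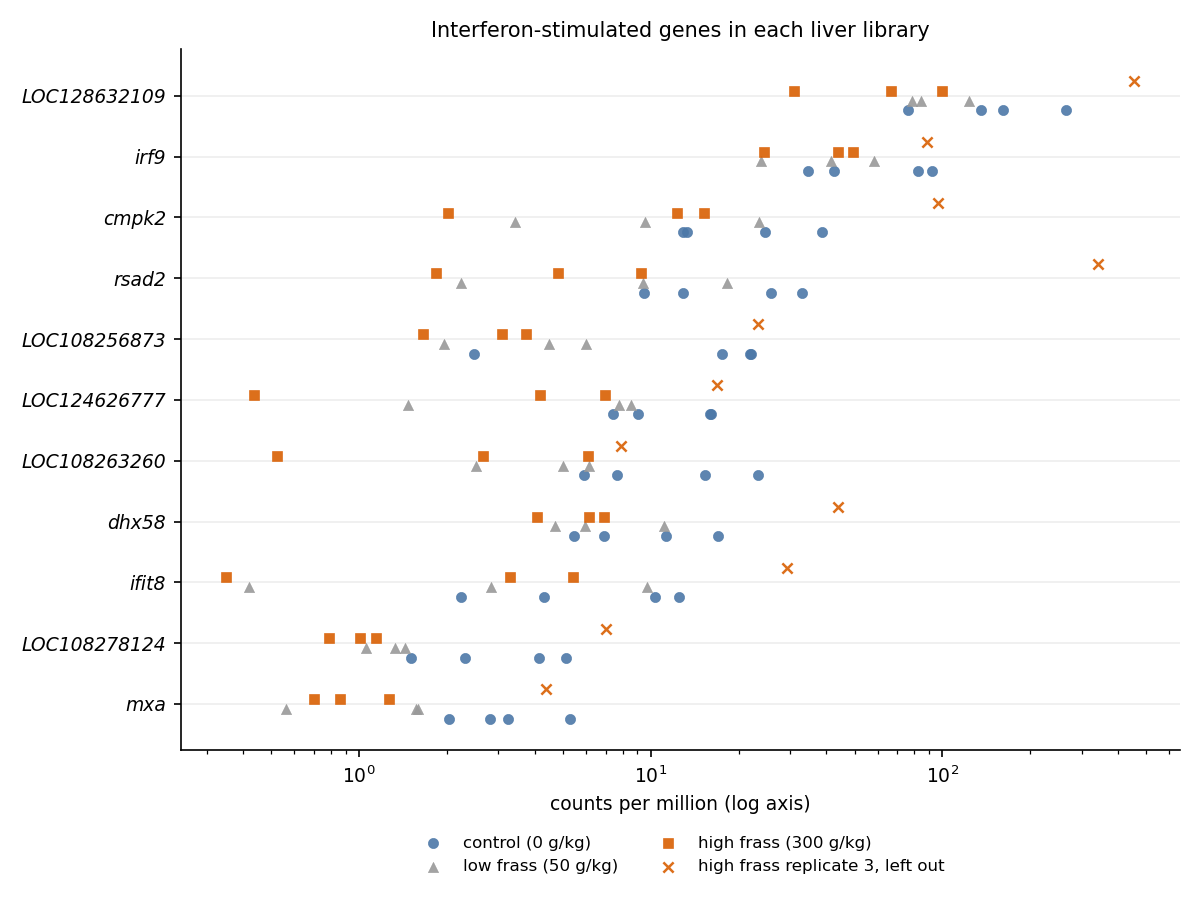
Level of 11 interferon-stimulated transcripts in each liver library, in CPM on a log axis, with 1 symbol per library and a cross for high-frass liver replicate 3, which the comparison left out. The cross lies at 341 CPM for rsad2, where the other high-frass libraries reach at most 9.27 CPM and the controls at most 32.9 CPM.

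Other immune genes were mixed. Transcripts annotated as TRIM16, a large family in fishes, went both ways, with 4 higher and 5 lower of 9 tested. LOC108278125 had 5.47, 3.81, 3.88 and 8.11 CPM in control against 1.14, 2.29 and 2.65 CPM in high-frass liver. LOC124627534 had 2.29, 4.75, 4 and 7.66 CPM against 6.82, 11.8 and 28.7 CPM (log2 fold change 1.75, and 0.997 without high-frass replicate 4). All members of this group came from the study's own lists, so their counts are a description of those lists. Of 6 antigen presentation genes tested, 4 were higher and 2 lower. The class I transactivator nlrc5 had 3.09, 3.60, 3.94 and 2.703 CPM against 2.099, 2.03 and 0.86 CPM (log2 fold change -1.01, SE 0.34), while beta-2 microglobulin (b2ml), the light chain of class I molecules, had 366 to 471 CPM against 438 to 542 CPM. Lysozyme (lysc), which cuts bacterial cell walls, had 0.53, 0.65, 0.93 and 0.83 CPM against 1.14, 3.81 and 1.65 CPM (log2 fold change 1.57, and 0.91 without high-frass replicate 2). The macrophage scavenger receptor marco had 2.47 to 5.86 CPM against 5.46 to 9.60 CPM. Summed macrophage and neutrophil markers were 1097 to 3533 CPM in control and 1239 to 2258 CPM in high-frass liver, which overlapped. Summed T and NK cell markers were 2.16 to 2.38 CPM in control and 1.399 to 2.01 CPM in high-frass liver, lower without overlap. This sum lay near the floor, since 17 of the 29 matched features had no count in any of the 7 libraries. None of the 29 passed the filter on low counts. The part of these cells in the values of the interferon list was not tested.

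Chaperone genes leaned the other way from the interferon genes. Of 30 heat shock and unfolded protein genes tested, 25 (83.3%) were higher in high-frass liver, against 48.4% of all features, with a median log2 fold change of 0.30. The 6 with an unadjusted p under 0.05 were all higher, where 5.19% of all features had such a p and 2.04% were also higher. The groups did not overlap for 3 of the 30 (10%), against 5.67% of all features. By direction alone, other lists were about as one-sided. Lower in high-frass liver were 19 of 23 glucose genes (82.6%), 14 of 18 metal and oxidative stress genes (77.8%) and 13 of 17 fat synthesis genes (76.5%). GRP94 (hsp90b1), the HSP90 of the endoplasmic reticulum, had 149, 93.6, 171 and 105 CPM in control and 268, 173 and 245 CPM in high-frass liver (log2 fold change 0.82, SE 0.25). Control replicate 3 and high-frass replicate 2 nearly touched. The protein disulfide isomerase pdia4 had 21.3, 24.2, 26.1 and 18.0 CPM against 41.7, 30.8 and 28.7 CPM (log2 fold change 0.59, SE 0.19). The cytosolic chaperone hspa4a had 5.74 to 7.70 CPM against 8.26 to 11.7 CPM.

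BiP (hspa5) had 13.8, 12.02, 15.6 and 10.8 CPM in control and 26.6, 23.5 and 14.8 CPM in high-frass liver, with high-frass replicate 4 inside the control range (log2 fold change 0.73, SE 0.33). The isomerase pdia6 (0.46) and the cytosolic HSP90 gene hsp90aa1.2 (0.66, and 0.41 without high-frass replicate 2) also had an unadjusted p under 0.05. The most read member, hsp90ab1, had a log2 fold change of -0.16, with 2288 to 3144 CPM against 2157 to 2586 CPM, and the summed level of the list was 3698 to 4445 CPM in control and 3890 to 4021 CPM in high-frass liver. Of the transcription factors of the unfolded protein response, xbp1 had a log2 fold change of -0.40 and atf4a one of 0.02. Against low-frass liver, hsp90b1 had a log2 difference of 0.64 (unadjusted p = 0.0337) and pdia4 one of 0.61 (unadjusted p = 0.0118), both with an adjusted p of 1. Of 31 proteasome genes, 19 were higher with a median of 0.03, and psmc3, an ATPase of the regulatory particle, had 11.7 to 15.2 CPM against 16.6 to 17.8 CPM.

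**Figure D4:**
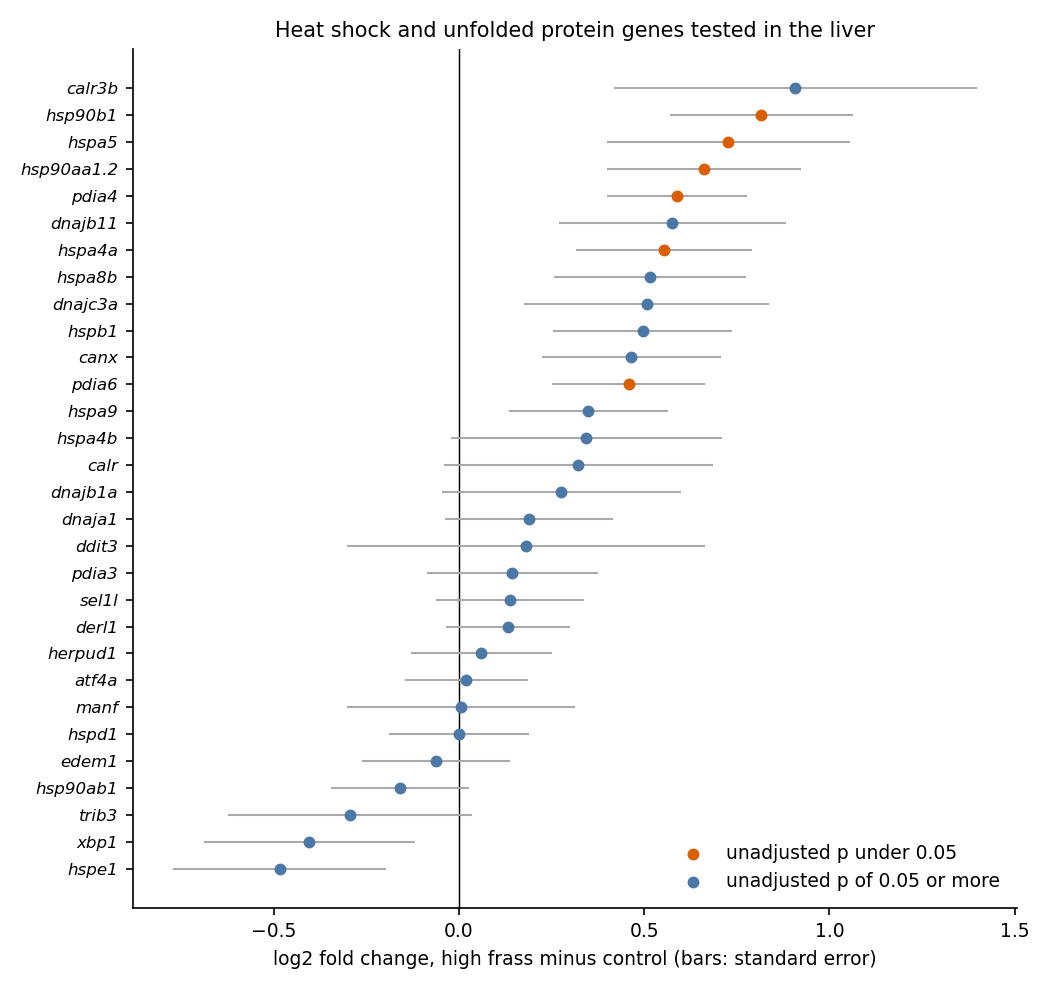
Log2 fold change between high-frass and control liver (x axis) with its standard error (bars) for the 30 heat shock and unfolded protein genes tested, in order of size. Orange points have an unadjusted p under 0.05. All 6 orange points lie to the right of 0, from pdia6 at 0.46 to hsp90b1 at 0.82, and none passed the adjusted test.

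Apolipoprotein A-II (apoa2), a main protein of high-density lipoprotein, stood apart among the abundant transcripts. The control livers had 12930, 13020, 14170 and 28770 CPM and the high-frass livers 8487, 8880 and 6661 CPM. The groups did not overlap, and the mean was 2.15-fold higher in control liver (log2 fold change -1.10, SE 0.36). Control replicate 4 lay far above the other controls, and leaving it out shrank the value to -0.74. High-frass liver replicate 3, not in the comparison, had 15170 CPM of apoa2, inside the control range. Putting that library back gave -0.79. The low-frass livers had 8955, 19820 and 8948 CPM, on both sides of the control minimum. The summed apolipoprotein level was 25510 to 47010 CPM in control and 18620 to 21970 CPM in high-frass liver. This sum includes apoa2 as a large part and is not separate evidence. The list as a whole had no shared direction, with 8 of 14 members higher and a median of 0.02. At an unadjusted p under 0.05, 4 of the 14 were lower and 1 was higher, against 3.15% and 2.04% of all features. Without features of the study's own lists, 2 of 10 were lower at such a p and 0 higher. Lipoprotein lipase (lpl), which frees fatty acids from plasma lipoproteins, had 145, 87.0, 61.3 and 229 CPM against 98.5, 38.5 and 57.9 CPM, and its log2 fold change of -1.01 became -0.59 without control replicate 4. The hepatic lipase gene lipca had 60.8 to 114 CPM against 206, 192 and 58.2 CPM. A transcript of LOC108280791, annotated as apolipoprotein A-I-1, had a log2 fold change of -1.15, but it is 1 of 2 transcripts of its gene, and reads shared by the transcripts could not be counted.

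Genes of fatty acid oxidation were split, with 8 of 15 higher and a median of 0.01. The groups did not overlap for 3 of the 15 (20%), against 5.67% of all features. Of these, 2 lay above the controls and 1 below them. The carnitine carrier slc25a20, the main importer of acylcarnitine into mitochondria, had 20.02, 28.4, 29.9 and 28.9 CPM in control and 34.5, 38.9 and 44.5 CPM in high-frass liver (log2 fold change 0.55, SE 0.22). The trifunctional protein subunit hadhab, of long-chain beta oxidation, had 42.8, 43.3, 53.2 and 45.7 CPM against 58.9, 57.5 and 74.1 CPM (log2 fold change 0.46, SE 0.19). The groups stayed apart for both genes. The low-frass livers had 52.2, 32.9 and 33.5 CPM of slc25a20, all above the controls, and 63.9, 44.5 and 55.5 CPM of hadhab, partly within the control range.

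Genes of fat, sterol and glucose metabolism spread widely within each diet. Glucokinase (gck), which traps glucose in liver cells and was picked after its values were seen, had 4.15, 2314, 82.4 and 16.8 CPM in control and 782, 165 and 6.81 CPM in high-frass liver. The stearoyl-CoA desaturase scdb, which makes monounsaturated fat, had 108, 2839, 405 and 168 CPM against 1541, 890 and 77.8 CPM. The sterol gene msmo1 had 17.2, 759, 81.3 and 21.6 CPM against 329, 23.8 and 13.6 CPM. Control replicate 2 and high-frass replicate 1 were high for all of these genes, and for fads2, elovl6, fdps and thrsp. Control replicates 1 and 4 and high-frass replicate 4 were low for gck, scdb, fads2 and msmo1. The highest control was 3.72 times the lowest for the median gene of cholesterol synthesis, against 1.74 times for the median of all features. None of 18 cholesterol synthesis genes, 17 fat synthesis genes and 23 glucose genes had an unadjusted p under 0.05 in the fit of filtered features or kept the groups apart. Of all features tested, 5.19% had such a p and 5.67% kept the groups apart, so few were to be expected in lists of this size. Without a filter on low counts, edgeR called fdps, aclya and hsd17b7 lower, at log2 fold changes of -1.25, -1.42 and -1.34.

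**Figure D5:**
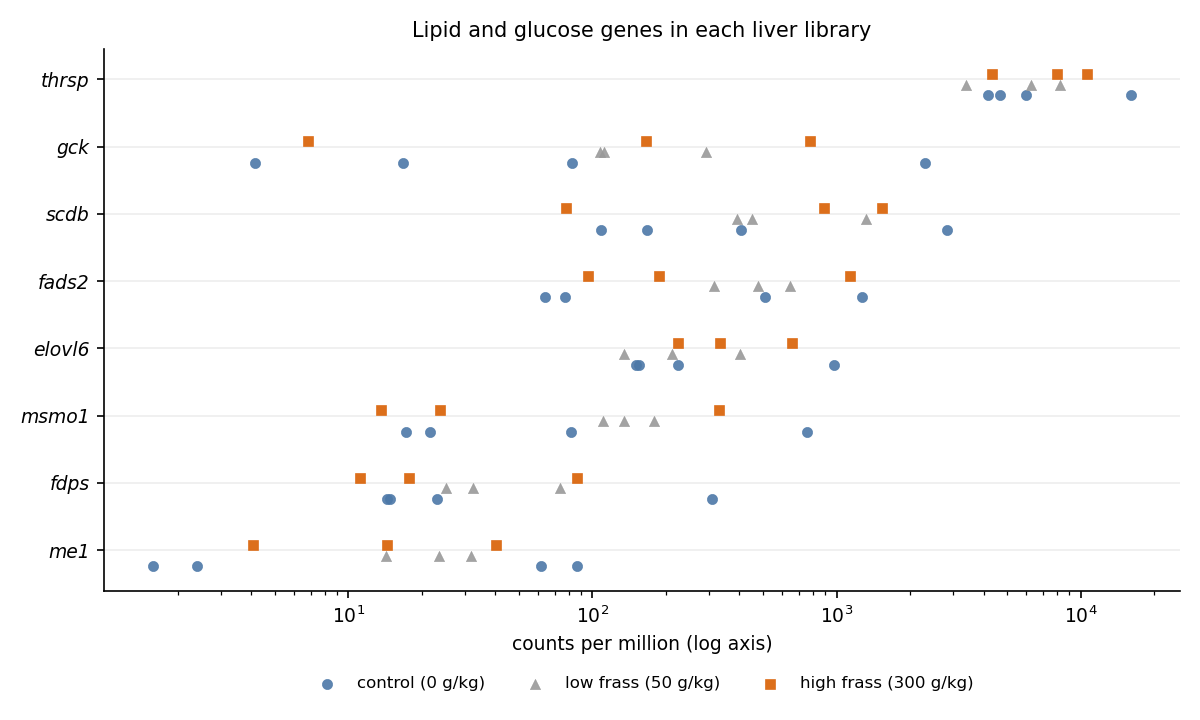
Level of 8 lipid and glucose transcripts in each liver library, in CPM on a log axis, with 1 symbol per library. The controls of gck run from 4.15 to 2314 CPM and its high-frass libraries from 6.81 to 782 CPM, so that the diets overlap throughout.

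Iron and metal genes gave single contrasts. Ferroportin (slc40a1), the exporter that releases iron from cells, had 888, 1335, 988 and 817 CPM in control and 716, 598 and 428 CPM in high-frass liver, without overlap (log2 fold change -0.79, SE 0.26). Against low-frass liver the difference was -0.68 (unadjusted p = 0.0307, adjusted p of 1). Hepcidin (hamp), the hormone that blocks ferroportin, had 7.23, 9.5, 2.26 and 7.51 CPM against 1.05, 63.7 and 11.03 CPM, and its log2 fold change of 1.94 turned to -0.11 without high-frass replicate 2. With high-frass liver replicate 3, left out for its RNA quality, put back, the hamp value was 3.77. The ferritin chain fth1a had 937 to 1621 CPM against 746 to 990 CPM. Metallothionein (mt2), which binds zinc and copper, had 1365, 488, 403 and 1323 CPM against 196, 318 and 424 CPM (log2 fold change -1.52, SE 0.51). Control replicates 1 and 4 were high for mt2, and high-frass replicate 4 lay inside the range of the other controls.

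Control replicates 1 and 4 were also the highest for the stress-response genes junbb and cebpd. The AP-1 gene junbb had 58.0, 46.7, 19.7 and 102 CPM against 9.27, 33.9 and 9.96 CPM. The transcription factor cebpd, an early regulator of acute phase genes, had 103, 55.0, 51.0 and 245 CPM against 44.2, 72.3 and 39.3 CPM, and its log2 fold change of -1.13 became -0.42 without control replicate 4. The stress gene ier3 stayed apart at 0.50 to 1.16 CPM against 0.14 to 0.44 CPM. Of 32 complement and coagulation genes, 21 were higher in high-frass liver with a median of 0.12. The terminal complement component c7b had 375, 291, 361 and 279 CPM against 382, 685 and 468 CPM, and the lectin pathway protease masp2 had 295, 329, 311 and 227 CPM against 458, 346 and 367 CPM. Both had groups that did not overlap, with c7b near touching and its log2 fold change of 0.65 at 0.38 without high-frass replicate 2. The fibrinogen chain fgg, by contrast, had a log2 fold change of 0.00 and hemopexin (hpxa), the heme carrier that took the most reads in all, 0.14.

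Of 36 genes of amino acid breakdown, 26 were lower with a median of -0.13. Tyrosine aminotransferase (tat), the first step of tyrosine breakdown, had 866.5, 542.7, 409.3 and 414.8 CPM in control and 370.4, 354.9 and 277.1 CPM in high-frass liver (log2 fold change -0.74, and -0.44 without control replicate 1). The methionine cycle enzyme bhmt had 2565, 947, 559 and 2354 CPM against 428, 1050 and 824 CPM. Clock genes were divided, with 6 higher and 8 lower, and of 17 growth axis genes 12 were higher with a median of 0.12. The clock gene per3 had 38.2, 54.8, 91.1 and 46.9 CPM against 32.7, 36.9 and 34.0 CPM, and the growth factor binding protein igfbp1a 86.8, 90.6, 185 and 107 CPM against 59.6, 66.7 and 75.2 CPM. Both stayed apart, and both log2 fold changes, -0.74 and -0.80, shrank to -0.43 and -0.50 without control replicate 3. The hepatocyte regulator hnf4a had 57.3 to 103 CPM against 42.6 to 58.1 CPM (log2 fold change -0.70, SE 0.23), which just overlapped.

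Somatostatin transcripts were read mainly in control replicates 3 and 4. The genes sst1.1 and sst2 had 0, 3, 32 and 31 counts and 0, 0, 40 and 20 counts in control replicates 1 to 4, and at most 1 count in any of the 3 high-frass libraries. The glucagon gene gcga had 2, 6, 4 and 2 counts against 3, 2 and 2 counts. Summed endocrine pancreas markers were 45.2 to 103.2 CPM in control and 31.16 to 50.63 CPM in high-frass liver, which overlapped. Of these markers, 3 were tested and all 3 were lower, against 51.6% of all features. Of the 3, sst1.1 and ptprna are on the study's own list for high-frass liver, made from these libraries. The shared direction therefore partly describes that choice. The member ptprna made up most of the sum, at 60.86, 100, 98.55 and 40.85 CPM against 50.2, 30.99 and 30.23 CPM (log2 fold change -1.02, SE 0.55). The vitamin D carrier gc, a hepatocyte marker, had 1, 3, 191 and 318 counts in control libraries against 7, 0 and 17 counts. The apolipoprotein transcript apoa1a had 0, 86, 40 and 8 counts against 2, 1 and 0 counts. The part of pancreatic tissue in these differences was not tested. Summed endothelial markers were 106.8 to 149.3 CPM in control and 127.9 to 180.9 CPM in high-frass liver, and B cell markers 107.8 to 237.3 CPM against 101.7 to 136.5 CPM.

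The study's list for high-frass liver holds 71 features, and 64 of them passed the filter on low counts. The other 7 were added back for their own values. The authors drew the list from this same comparison with DESeq2, at the cutoffs also used here. They adjusted the p-values with the fdrtool package, a step that was not run here. At these cutoffs the main fit called 0 features, and DESeq2 without fdrtool called 3 or 5, depending on the fit. The part of fdrtool in this gap was not tested. Of the 71, 54 were lower and 17 higher in high-frass liver, 67 had an unadjusted p under 0.05 and 44 kept the groups apart. Among all features tested, the shares were 5.19% for such a p and 5.67% for groups kept apart. The list was chosen for differences in these same libraries, so its counts describe that choice. They are not independent evidence of direction or size. The median size of its log2 fold changes was 1.68, against 0.21 over all features. Its interferon-related member ucrp, an ISG15-like ubiquitin relative, had 12, 8, 5 and 24 counts in control libraries and 3, 3 and 0 in high-frass libraries, with 137 counts in high-frass liver replicate 3, left out. The aryl hydrocarbon receptor transcript LOC108266654, a sensor of foreign compounds, had 0.53, 0.72, 1.45 and 0.53 CPM against 3.41, 2.41 and 1.36 CPM, and the corepressor nrip1b had 9.61, 6.19, 11.9 and 4.805 CPM against 21.4, 11.2 and 45.3 CPM. Claudin 11a (cldn11a), a tight junction protein, had 1, 0, 1 and 1 counts against 13, 8 and 4 counts.

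High-frass liver was set beside low-frass liver in the same fit to ask whether the dose mattered. Again 0 features passed, the smallest adjusted p was 1, and 169 (2.34%) had an unadjusted p under 0.05, fewer than an even spread gives. For abcc6a, the high-frass livers exceeded the low-frass livers by 1.23 on the log2 scale (SE 0.29, unadjusted p = 0.00133). For the TRIM16 transcript LOC124627534, which the study lists for both frass diets in liver, the excess was 3.36 (SE 0.69, unadjusted p = 0.000394). Its low-frass livers had 0.75, 0.66 and 3.2 CPM, below or within the control range of 2.29 to 7.66 CPM. The means were 1.54 CPM in low-frass, 4.7 CPM in control and 15.8 CPM in high-frass liver, which is not a graded rise with dose. A test of whether the difference between high frass and control depended on tissue, with the intestine libraries of the series, covered 10895 features. It found 0 with an adjusted p under 0.05 and 459 with an unadjusted p under 0.05, and also 0 by adjusted p without a count filter. For ier3 the log2 fold change was 1.02 in the intestine and lower by 2.32 in the liver, and for abcc6a it was -0.95 in the intestine and higher by 2.34 in the liver, each with an adjusted p of 1. Both are among the features whose liver groups did not overlap, so the sizes of these tissue differences partly describe that choice.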

How the data were processed

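RNA sequencing counts of 24 libraries (63022 features each) were used, of which 7 liver libraries form the comparison and 10 the fit. The deposited values are raw counts, which the authors made by trimming with Trimmomatic 0.38, aligning with STAR 2.7.8a to Coco_2.0 and counting exons by parent transcript with HTSeq 0.9.0 in union mode without regard to strand. Reads shared by transcripts of a gene are lost that way, and overlapping or antisense genes cannot be told apart. Of the features, 60482 matched a gene of RefSeq Coco_2.0, and product names came from the study's supplementary lists.

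The 3 diets entered 1 quasi-likelihood fit in edgeR 4.0.16 (R 4.3.3) with TMM scaling and the default filter (minimum count of 10). Benjamini-Hochberg adjustment ran over all 7213 features. A feature counted as changed where its adjusted p was under 0.05 and its fold change above 2. Standard errors came from the F statistic (the log2 fold change over its root). Library quantities were compared by exact permutation tests. The fit was tested on simulated counts.

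The third replicates of high-frass and low-frass liver, which the study dropped too, stayed out of the main fit and came back in alternatives. The other alternatives were DESeq2 1.42.0, its size factors, other filters, these groups alone and a replicate block. The A or B letter of the pools as a block, robust dispersions, summed transcripts and log2 of CPM with 1 or 0.1 added were also run. Each control and high-frass library of the comparison was left out in turn, but no low-frass library was. Members and gene lists were chosen with earlier results of these data known. Named genes were drawn from the following sets, except where stated, and not every member of a set is named. The sets were up to 15 per direction with the smallest p among features without overlap, and the 10 most abundant. They also held up to 5 of each list by p and 5 by level. The last sets were list members without overlap, and genes the study listed or assayed for the liver.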

Additional observations from a re-analysis of the deposited data

Results flagged for a closer look

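Control liver held single libraries far from the other 3 for 10 of 87 genes. Chance marks about 1 in 20 groups of independent, normally distributed values. This rate cannot be set beside the count, since the genes were partly picked on their values and several vary together. The check also ran on CPM without a logarithm, a scale that sets high values further apart. Control replicate 2 stood apart for gck (2314 CPM), scdb (2839 CPM), elovl6 (976 CPM), msmo1 (759 CPM), fdps (310.2 CPM), thrsp (16060 CPM) and psmc3 (15.2 CPM). Control replicate 4 stood apart for apoa2 (28770 CPM), and control replicate 1, on the low side, for slc25a20 (20.02 CPM) and LOC108279106 (0.353 CPM).

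High-frass liver replicate 3, which no main comparison used, lay above every control library in the summed level of 14 of 39 gene lists. Its interferon-stimulated genes summed to 1314 CPM and its skeletal muscle markers to 160.9 CPM, where the controls reached at most 673.1 and 14.0 CPM. Its sums were 28020 CPM for fat synthesis, 227800 CPM for acute phase and iron, 5959 CPM for heat shock and unfolded protein, 1006 CPM for the proteasome, 700 CPM for antigen presentation and 68.9 CPM for cell division. They were 310200 CPM for hepatocyte, 163700 CPM for exocrine pancreas, 865.5 CPM for stellate and fibroblast and 2.77 CPM for T and NK cell markers. A transcript annotated as TRIM39 had 5.41 CPM there, and 2 chemokines 237.5 CPM. Other lists lay below every control library there, a side that was not counted. Complement and coagulation summed to 38290 CPM, where the controls had 55500 to 77110 CPM. Amino acid breakdown summed to 8628 CPM against 10620 to 20140 CPM, and endocrine pancreas markers to 2.905 CPM against 45.2 to 103.2 CPM. This library held 10494755 counts, but its CPM also carry a TMM factor fitted with the library added. Its 114903 counts of apoa2 became 15170 CPM, more than the total count alone would give. The scaling thus raised all its sums, and its part in the 14 lists was not tested.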

How the results depend on the processing

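The count of features called in high-frass liver was 0 in the main fit and 0 under all alternatives run but 3, being 3 with DESeq2 over the 3 diets, 5 with DESeq2 on these groups alone and 133 without a count filter. The cause was not tested. Features with an unadjusted p under 0.05 numbered 921 without a filter, which tests 17475 features, and 134 with all 12 liver libraries, and leaving out 1 library gave 289 to 441. High-frass against low-frass liver gave 1 call with DESeq2 over the 3 diets, 71 without a filter and 1 with a replicate block. Features without overlap numbered 164 with high-frass liver replicate 3 put back, which adds a library to the range. The median of the interferon list was -0.10 with that library back and -0.11 with all 12, and ran from -1.71 to -0.94 when 1 library was left out. With high-frass liver replicate 3 back and with all 12 libraries, the log2 fold changes of LOC128632109 were 0.056 and 0.0362, of rsad2 2.16 and 2.14, of cmpk2 0.514 and 0.497, of apoc1 0.0845 and 0.0699 and of hsp90ab1 0.122 and 0.109, all positive where the main values are negative. Leaving out 1 library gave -0.109 to 2.5 for hamp and -0.116 to 1.29 for the calreticulin gene calr3b, with the negative values without high-frass replicates 2 and 1. Over the named genes and alternatives, 1564 values kept direction and, where it was checked, side of the threshold. Another 43 passed it (with DESeq2 or without a filter) and 12 changed sign. For log2 of CPM with 1 or 0.1 added, only the direction was checked. The replicate block left 0 calls against control, and 373 features had an unadjusted p under 0.05. The r of same-numbered libraries, -0.24, -0.02 and 0.33, did not pair the samples.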
